A study of Mus musculus with 9 samples.

Results

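The 27 genes described here make cholesterol, sense it through the Srebp system, or move and store it in the cell. They were taken by symbol from a fixed list, and all 27 were found once among the 24532 genes of the count table and passed the filter on low counts that left 14507 genes for testing. The RNA is from keratinocytes, which make up most of the epidermis, sorted out of the skin of C57BL/6 mice aged 1, 7 or 14 days. Each age has 3 libraries, and the labels name no treatment and no engineered allele. Sorting kept cells negative for the leukocyte surface protein CD45.2 and for PI, without a keratinocyte marker, so other cells of the skin can be among them. Libraries are named by the numbers in their column headers, which are 4, 5 and 6 on days 1 and 14 but 1, 2 and 3 on day 7. The header of every count column begins with SPF, which the headers do not explain. The day 1 columns are headed D0 and were taken as day 1 because days 7 and 14 have columns of their own. Whether these are separate animals is not in the labels, so p-values reflect the spread among these libraries alone, and that spread may be technical.

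Cells build cholesterol from acetyl-CoA through mevalonate, the isoprenoid farnesyl diphosphate, squalene and lanosterol. The transcription factor Srebp2, encoded by Srebf2, raises transcription of most of these enzymes when sterols in the endoplasmic reticulum run low, and it is carried to the Golgi for activation by Scap unless Insig proteins hold the pair back. Cholesterol taken up from outside leaves lysosomes through Npc2 and Npc1, and Soat1 esterifies it for storage. In the epidermis, cholesterol is 1 of the main lipids of the water barrier, beside ceramides and free fatty acids.

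Total counts were between 50670191 and 62970768 per library, and the 27 genes had from 35 counts (Soat1, day 14 library 6) to 50857 counts (Hmgcs1, day 14 library 4). Levels are given as CPM, counts relative to library size, after scaling with TMM, a method that sets most genes level between libraries. All 8 keratinocyte markers were found, and Krt5 was between 14748 and 23124 CPM in every library. Their summed level was 48856 to 56281 CPM at day 1, 56828 to 59233 at day 7 and 43412 to 45472 at day 14. In the test described below, 4 of them (Krt15, Trp63, Itga6 and Dsg3) rose from day 1 to day 14. Krt5, Krt14 and Krt1 fell, so 3 of the 8 went down, beside 35.5% of all genes tested that rose and 38.4% that fell. Summed over 5 melanocyte markers, the level was 345 to 376 CPM at day 1, 98.8 to 120 at day 7 and 4 to 8.07 at day 14. For 6 leukocyte markers it was 5.07 to 6.62, 5.56 to 6.44 and 24.5 to 25.7 CPM, with Ptprc at or below 0.18 CPM. For 6 fibroblast markers it was 122 to 225, 17.2 to 61.6 and 16.8 to 37.2 CPM. For 3 markers of red blood cells it was 0 to 0.0887, 2.43 to 27.7 and 0.0597 to 1.83 CPM, highest at day 7. Xist, the RNA of the inactive X chromosome, was at 861 to 1642 CPM at day 1, 0 counts at day 7 and 2328 to 2682 CPM at day 14, while the Y-linked Ddx3y was at 41.8 ± 13.3, 105 ± 5.9 and 0 CPM. Every day 1 library held both RNAs, so each appears to hold cells of male and female animals. Day 7 libraries held only Ddx3y and day 14 libraries only Xist. Sex and age therefore cannot be told apart in these comparisons, the part of the other cell types in the results was not tested, and in such bulk samples fewer cells of a type and less RNA per cell cannot be told apart.

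Across the list, single steps of the pathway moved in opposite directions between days. A gene was called changed at an adjusted p under 0.05 in edgeR's quasi-likelihood test, adjusted with the Benjamini-Hochberg method over all genes tested. From day 1 to day 7, 8 of the 27 genes rose and 12 fell, beside 25.5% and 24% of all genes tested (49.4% in either direction). From day 7 to day 14, 12 rose and 7 fell, beside 32.5% and 35.1% of all genes, 67.6% in either direction (10 rose and 13 fell where libraries were scaled by their totals alone). From day 1 to day 14, 14 rose and 10 fell, beside 35.5% and 38.4% of all genes (73.9% in either direction). The median log2 fold changes of the 27 genes were -0.10, 0.01 and 0.22 in these comparisons, and those of all genes tested were -0.001, -0.035 and -0.046. With library totals alone the medians of all genes moved to -0.1, -0.21 and -0.319. A test for any difference over the 3 days passed for 26 of the 27 genes, beside 82.1% of all genes tested. The 3 comparisons share libraries and are not independent of each other.

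**Figure D1:**
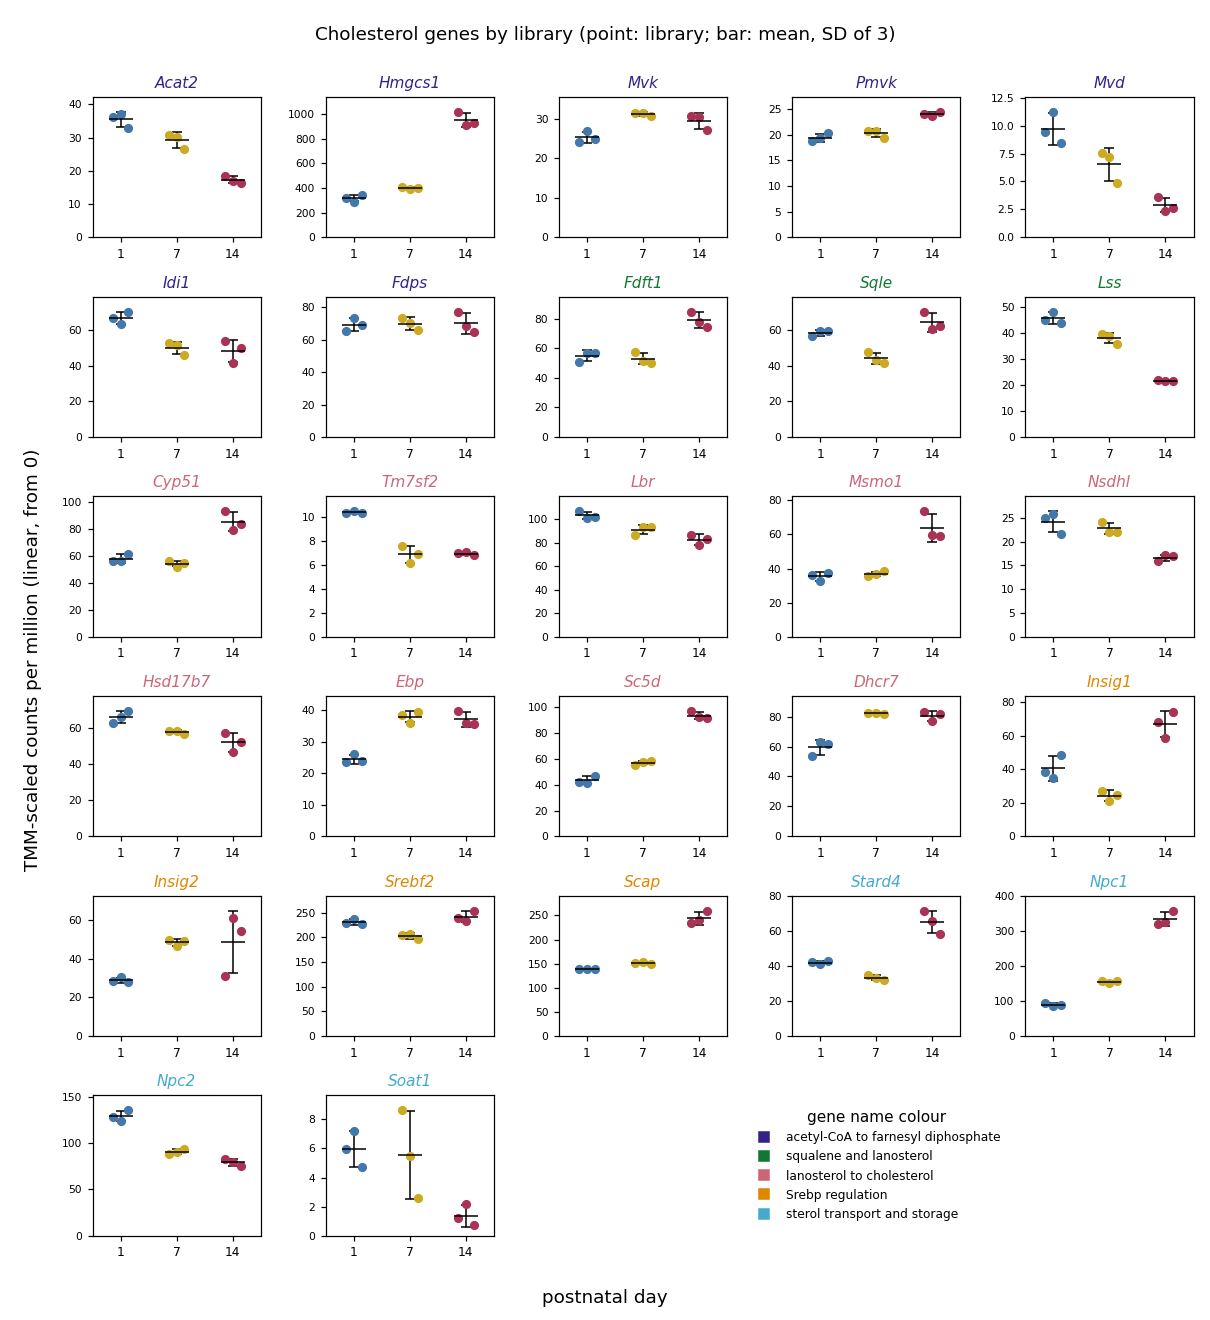
Level of each of the 27 genes in every library, in TMM-scaled CPM on a linear axis from 0, against postnatal day. Points are libraries, the horizontal bar is the mean and the whisker the SD of 3 libraries. Hmgcs1 and Npc1 step up with each age, Acat2, Mvd and Lss step down, and Insig1 is lowest at day 7.

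The first enzymes of the pathway, from acetyl-CoA to farnesyl diphosphate, did not move as a block. Of these 7 genes, 3 rose (Hmgcs1, Mvk and Pmvk) and 3 fell (Acat2, Mvd and Idi1) from day 1 to day 14, and Fdps was not called. Hmgcs1 encodes the synthase that joins acetyl-CoA to acetoacetyl-CoA and so forms HMG-CoA (gene 208715, mm10 chromosome 13, 119690351 to 119708260). Its level was 321, 290.5 and 343 CPM in day 1 libraries 4, 5 and 6, then 407, 392 and 402 CPM in day 7 libraries 1, 2 and 3. At day 14 it was 1016, 910.4 and 930.0 CPM in libraries 4, 5 and 6. The libraries of the 3 days did not overlap, and Hmgcs1 rose in both steps, by 0.33 ± 0.06 and 1.25 ± 0.06 on the log2 scale (± SE, edgeR adjusted p = 7.15e-04 and 5.97e-09). The second step was the larger by 0.92 ± 0.11 (edgeR adjusted p = 2.97e-05). GENCODE lists an antisense gene over 557 bases of Hmgcs1 exons, and without the strand setting of the authors' counting its reads cannot be told apart.

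Mvd, the decarboxylase that turns mevalonate diphosphate into isopentenyl diphosphate (gene 192156, chromosome 8, 122433596 to 122443422), went the other way. It was at 9.42, 11.2 and 8.45 CPM at day 1, at 7.58, 7.17 and 4.84 CPM at day 7 and at 3.61, 2.38 and 2.65 CPM at day 14. All day 14 libraries were below all others, and the change from day 1 was -1.75 ± 0.20 (log2, edgeR adjusted p = 8.47e-06). The first step (-0.57 ± 0.19, adjusted p = 0.028) lost its call when day 1 library 4 (0.0567) or 5 (0.108) or day 7 library 3 (0.0972) was left out, within 0.00989 to 0.108 over the alternatives.

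Acat2, a cytosolic thiolase that condenses acetyl-CoA (chromosome 17, 12943042 to 12960725), was at 36.2, 37.2 and 33.0 CPM at day 1 and 30.9, 30.3 and 26.7 CPM at day 7. At day 14 it was at 18.6, 17.1 and 16.5 CPM, below every earlier library. It fell in both steps, by 0.27 ± 0.07 and 0.75 ± 0.08 on the log2 scale (edgeR adjusted p = 0.00826 and 2.59e-06). Reads of its paralog Acat3 may have been assigned to either gene, and Acat3 had 0 counts in every library except day 14 library 6 (0.736 CPM). Idi1, which interconverts the isoprenoid units (chromosome 13, 8885606 to 8892396), fell from 67.0 ± 3.5 to 50.3 ± 3.49 CPM in the first step (SD, n = 3, log2 fold change -0.41 ± 0.09, edgeR adjusted p = 0.00272) and was at 48.6 ± 6.36 CPM at day 14. Its second step was not called (adjusted p = 0.628), but was with library totals alone (0.0294, log2 fold change -0.23). A gene model on the other strand overlaps 323 bases of Idi1 exons.

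The kinases and the prenyl transferase of this stretch moved little. Mvk, the mevalonate kinase, rose from 25.4 ± 1.42 to 31.3 ± 0.43 CPM by day 7 and was at 29.5 ± 2 CPM at day 14. From day 1 to day 14 it rose by 0.22 ± 0.06 (log2, edgeR adjusted p = 0.00924), but with library totals alone the value was -0.06 and was not called. Pmvk, the phosphomevalonate kinase, rose from 19.4 ± 0.83 at day 1 and 20.3 ± 0.78 CPM at day 7 to 24.0 ± 0.36 CPM at day 14 (0.31 ± 0.06 from day 1, adjusted p = 5.28e-04), and neither rise was called with library totals alone (0.313 and 0.596). Fdps, which makes farnesyl diphosphate, was at 69.3 ± 4.1, 69.8 ± 3.87 and 70.1 ± 6.43 CPM. Its change from day 1 to day 14 was 0.02 ± 0.07 (adjusted p = 0.836), and with library totals alone it was called at -0.26 (0.00469). A gene model on the same strand covers 1124 bases of Fdps exons, so part of its reads may have been counted elsewhere.

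Promoter sequences are shown for 3 genes whose levels moved in different ways. Hmgcs1 had the largest rise among the genes with a sequence, Mvd the largest fall among the enzymes of synthesis, and Insig1 the largest drop and return. Mvd and Insig1 were chosen after their values were seen. The sequences are RefSeq windows on GRCm38.p6 of 300 bases, with 250 bases before and 50 bases from the start of transcription, at chr13:119690101-119690400 on the plus strand for Hmgcs1, chr8:122443373-122443672 on the minus strand for Mvd and chr5:28071162-28071461 on the plus strand for Insig1. Capitals mark the letters TCACNCCAC (a form of the Srebp site), CCAAT (NF-Y) and GGGCGG (Sp1), found on either strand; the capitals of 1 motif do not overlap another in these windows.
Hmgcs1: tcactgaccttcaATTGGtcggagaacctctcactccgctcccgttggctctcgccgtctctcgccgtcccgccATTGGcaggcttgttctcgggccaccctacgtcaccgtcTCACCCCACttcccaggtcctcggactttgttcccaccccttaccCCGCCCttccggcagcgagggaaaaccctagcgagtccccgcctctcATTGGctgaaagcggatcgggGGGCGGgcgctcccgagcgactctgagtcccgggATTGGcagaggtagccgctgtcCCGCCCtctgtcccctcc
Mvd: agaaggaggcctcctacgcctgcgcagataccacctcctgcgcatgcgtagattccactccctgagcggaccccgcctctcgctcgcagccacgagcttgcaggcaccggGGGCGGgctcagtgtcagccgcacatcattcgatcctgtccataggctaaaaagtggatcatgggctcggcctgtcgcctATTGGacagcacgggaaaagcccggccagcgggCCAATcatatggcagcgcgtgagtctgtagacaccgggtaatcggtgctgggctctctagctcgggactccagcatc
Insig1: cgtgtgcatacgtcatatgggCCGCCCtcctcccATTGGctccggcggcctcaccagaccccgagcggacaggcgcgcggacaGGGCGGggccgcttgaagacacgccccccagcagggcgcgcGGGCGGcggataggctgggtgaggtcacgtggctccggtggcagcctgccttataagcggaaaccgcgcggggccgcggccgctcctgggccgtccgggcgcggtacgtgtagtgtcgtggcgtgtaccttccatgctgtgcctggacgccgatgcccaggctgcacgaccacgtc
In the Hmgcs1 window the Srebp letters begin 137 bases before the start, with 4 CCAAT and 3 GGGCGG matches around them. The Mvd window holds 2 CCAAT and 1 GGGCGG, and the Insig1 window 1 CCAAT and 3 GGGCGG.

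RefSeq windows were found, by gene identifier, for 22 of the 27 genes. CCAAT stood in at least 1 window of 20 of these 22 genes (90.9%), beside 41.1% of all 27025 genes with a window and 43% of the tested genes with one. GGGCGG stood in 21 of 22 (95.5%), beside 38.2% of all genes and 67.6% of tested genes. TCACNCCAC stood in 1 of 22 (4.55%, Hmgcs1), beside 1.44% of all and 1.43% of tested genes. Only exact matches were sought, so other forms of the Srebp site are not counted. Nearly all 22 genes hold the 2 commoner motifs, so genes that rose and genes that fell were bound to include them. A link between these motifs and the direction of change was not tested. These are matches of letters, described without a test, and do not show that a factor binds there.

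Of the 3 genes that lead from farnesyl diphosphate to lanosterol, 1 rose and 1 fell from day 1 to day 14. Lss, the cyclase that closes the sterol rings (gene 16987, chromosome 10, 76531565 to 76557139), was at 45.2, 48.2 and 44 CPM at day 1, at 39.8, 38.9 and 36 CPM at day 7 and at 22, 21.4 and 21.6 CPM at day 14. Each day lay below the one before with no overlap. Lss fell by 0.26 ± 0.06 and then by 0.82 ± 0.06 on the log2 scale (edgeR adjusted p = 0.00209 and 1.10e-07), and the second step was the larger (difference -0.56 ± 0.10, adjusted p = 4.81e-04). An antisense gene overlaps 381 bases of Lss exons.

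Sqle, the squalene epoxidase and a rate-controlling step (gene 20775, chromosome 15, 59315092 to 59331193), dipped at day 7. It was at 56.4, 59.1 and 59.5 CPM at day 1, at 47.6, 43.1 and 41.6 CPM at day 7 and at 70.1, 60.4 and 61.9 CPM at day 14. The day 7 libraries were below all 6 others. Sqle fell by 0.40 ± 0.07 and then rose by 0.54 ± 0.07 on the log2 scale (edgeR adjusted p = 3.10e-04 and 1.52e-05), and days 1 and 14 did not differ beyond the threshold (0.14 ± 0.07, adjusted p = 0.078). Fdft1, the squalene synthase (chromosome 14, 63145150 to 63181687), was at 54.9 ± 3.68, 52.8 ± 3.76 and 78.8 ± 5.27 CPM and rose in the second step (0.58 ± 0.07, adjusted p = 1.21e-05). Over 774 bases its exons overlap those of Ctsb, a more abundant protease gene on the other strand, which rose from 267 ± 11.3 to 430.2 ± 15.9 CPM in the first step, where Fdft1 was not called, and was at 413 ± 5.88 CPM at day 14.

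Among the 9 genes from lanosterol to cholesterol, 5 rose (Cyp51, Msmo1, Ebp, Sc5d and Dhcr7) and 4 fell (Tm7sf2, Lbr, Nsdhl and Hsd17b7) from day 1 to day 14. Sc5d, a desaturase of the sterol ring (gene 235293, chromosome 9, 42251592 to 42264300), was at 42.0, 41.4 and 47.1 CPM at day 1, at 55.7, 57.5 and 58.4 CPM at day 7 and at 97.1, 92.2 and 91.7 CPM at day 14. The 3 days did not overlap. Sc5d rose by 1.11 ± 0.06 from day 1 to day 14 on the log2 scale (edgeR adjusted p = 2.66e-09), and in both steps.

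Msmo1 and Cyp51, which act early after lanosterol in removing its extra methyl groups, rose in the second step. Msmo1 (chromosome 8, 64718123 to 64733578) was at 36.2, 32.6 and 37.5 CPM at day 1, at 35.7, 36.6 and 38.3 CPM at day 7 and at 73.5, 59.5 and 59.1 CPM at day 14. Days 1 and 7 overlapped and day 14 stood above both. Its rise after day 7 was 0.80 ± 0.08 (log2, edgeR adjusted p = 5.78e-06), and that of Cyp51 (chromosome 5, 4080674 to 4104697), from 54.2 ± 2.12 to 85.2 ± 7.02 CPM, was 0.65 ± 0.06 (2.08e-06). The first step of Cyp51 was not called (-0.10 ± 0.06, adjusted p = 0.228), except with library totals alone (-0.20, 0.0154). Akap9, whose exons overlap 166 bases of Cyp51 from the other strand, was at 115 ± 5.36 and 143 ± 6.7 CPM at days 7 and 14.

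Ebp and Dhcr7, like Mvk and Insig2, rose by day 7 and were not called after it. Ebp, the sterol isomerase (chromosome X, 8185329 to 8193512), was at 23.4, 26.1 and 23.8 CPM at day 1, at 38.4, 36.0 and 39.4 CPM at day 7 and at 39.6, 36.0 and 35.5 CPM at day 14. Day 1 lay below both later days, which overlapped. Its first step was 0.63 ± 0.07 (log2, edgeR adjusted p = 7.18e-06) and its second -0.03 ± 0.07 (0.659). Dhcr7, the reductase that completes cholesterol, rose from 59.4 ± 4.97 to 82.2 ± 0.38 CPM (0.47 ± 0.06, adjusted p = 3.71e-05) and was at 80.4 ± 3.23 CPM at day 14. With library totals alone, the second steps of Ebp, Dhcr7 and Mvk were called lower, at -0.21, -0.21 and -0.26 (0.0136, 0.00601 and 0.004), so that these 3 rose and then fell under that scaling. With TMM scaling, edgeR called 0 of the 27 genes up and then down, beside 7.24% of all genes, and 0 met that pattern at an unadjusted p under 0.05 or with DESeq2.

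Tm7sf2 and Lbr both encode sterol C14 reductases, and Lbr is also a receptor of the inner nuclear membrane. Tm7sf2 (chromosome 19, 6062821 to 6067850) was at 10.4, 10.5 and 10.4 CPM at day 1, at 7.61, 6.20 and 6.92 CPM at day 7 and at 6.99, 7.09 and 6.83 CPM at day 14. It fell in the first step (-0.60 ± 0.09, edgeR adjusted p = 2.11e-04) and the later days overlapped. Its neighbour Vps51, whose exons share 532 bases with it on the same strand, was at 49.9 ± 1.02, 46.8 ± 2 and 50.1 ± 2.76 CPM. Lbr (chromosome 1, 181815315 to 181842401), whose exons overlap other genes over 509 bases, went from 103 ± 2.93 to 91.2 ± 3.75 and 82.6 ± 4.42 CPM and fell by 0.32 ± 0.05 from day 1 to day 14 (8.60e-05). Its first step (-0.18 ± 0.05, adjusted p = 0.0106) was lost without day 7 library 1 (0.0545, the highest over the alternatives), and its second (-0.14 ± 0.05, 0.0243) without library 2 (0.0631) or 3 (0.0597) of day 7 or library 5 of day 14 (0.0918), with RLE size factors (0.0635) and with DESeq2 (0.0766).

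Nsdhl and Hsd17b7 act in the same demethylation as Msmo1. Nsdhl (chromosome X, 72918521 to 72958528) was at 24.9, 25.9 and 21.7 CPM at day 1, at 24.2, 22.1 and 22.1 CPM at day 7 and at 15.9, 17.1 and 16.9 CPM at day 14. It fell in the second step (-0.46 ± 0.08, edgeR adjusted p = 2.05e-04), where Msmo1 rose. Hsd17b7 (chromosome 1, 169949535 to 169969242) fell from 66.4 ± 3.26 to 52.2 ± 5.21 CPM from day 1 to day 14 (-0.35 ± 0.07, 4.61e-04). Its first step (-0.19 ± 0.07, adjusted p = 0.031) was lost without day 1 library 5 (0.0719) or 6 (0.123) and without day 7 library 1 (0.0584), 2 (0.0665) or 3 (0.098). Its second step (-0.16 ± 0.07, adjusted p = 0.0551) was called on leaving out library 4 (0.0393) or 6 (0.0469) of day 1 or library 4 of day 14 (0.00525), without a low-count filter (0.0403), with only these days in the fit (0.0452) and with library totals alone (4.81e-04). Ebp and Nsdhl are both X-linked and Xist differed between the days, at 1352 ± 428 CPM, 0 counts and 2534 ± 184 CPM; its part in both results was not tested.

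Of the 4 genes of Srebp regulation, 3 rose from day 1 to day 14 and Srebf2 was not called. Insig1, which retains Scap in the endoplasmic reticulum and is itself induced by Srebp2 (gene 231070, chromosome 5, 28071412 to 28078662), was at 38.1, 34.7 and 48.7 CPM at day 1. It was at 27.2, 20.9 and 24.9 CPM at day 7 and at 68.4, 58.7 and 73.9 CPM at day 14. The 3 days did not overlap, with day 7 lowest and day 14 highest. Insig1 fell by 0.73 ± 0.15 and then rose by 1.46 ± 0.16 on the log2 scale (edgeR adjusted p = 0.00474 and 5.58e-05), and the steps differed by 2.195 ± 0.28 (3.30e-04).

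Insig2, which retains Scap in the same way (gene 72999, chromosome 1, 121304353 to 121332662), showed no such dip. It was at 28.3, 30.5 and 28.2 CPM at day 1 and at 49.9, 46.5 and 49.4 CPM at day 7. At day 14 it was at 30.9, 61.5 and 54.5 CPM, so that library 4 lay near the day 1 libraries and the other two above day 7. Its rise by day 7 (0.75 ± 0.23, edgeR adjusted p = 0.0341) was lost without any single day 1 library (0.0717 to 0.0952) or day 7 library (0.0662 to 0.0861) and with library totals alone (0.0566). Without day 14 library 4, the rises from day 1 to day 7 (0.75, 2.12e-06), from day 7 to day 14 (0.25, 0.0061) and from day 1 to day 14 (1.00, 1.34e-07) were all called. With it, the last was 0.76 ± 0.23 (adjusted p = 0.0214), and that call was lost without day 1 library 4 (0.0674) or 6 (0.0628), without day 14 library 5 (0.0569) or 6 (0.0692), with only these days in the fit (0.0567) and with library totals alone (0.0965).

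Scap, the escort of Srebp2 (gene 235623, chromosome 9, 110333288 to 110384949), rose most after day 7. It was at 139, 139 and 138 CPM at day 1, at 152, 153 and 148 CPM at day 7 and at 233.5, 240.4 and 259.6 CPM at day 14. The day 14 libraries stood above the others, and the second step was 0.69 ± 0.05 (log2, edgeR adjusted p = 8.43e-08). A gene model on the other strand overlaps 985 bases of Scap exons. The first step was 0.12 ± 0.05 (adjusted p = 0.0427) and was lost without any single day 1 library (0.0675 to 0.0949), any single day 7 library (0.0629 to 0.114) or day 14 library 5 (0.0523), with RLE size factors (0.0696), with DESeq2 (0.055) and with library totals alone (0.673). Srebf2 itself (gene 20788, chromosome 15, 82147269 to 82205379) was at 231 ± 5.68, 202 ± 5.5 and 242 ± 10.4 CPM. It fell by 0.19 ± 0.05 and rose by 0.26 ± 0.05 (0.00429 and 3.30e-04), a rise that was not called with library totals alone (0.13). From day 1 to day 14 it was not called (0.07 ± 0.05, adjusted p = 0.214), but with library totals alone it was called lower (-0.21, 0.00104).

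Sterol transport and storage held the widest changes of the list. Npc1, the membrane protein that passes cholesterol out of lysosomes, was at 93.9, 85.3 and 88.3 CPM at day 1, at 157, 152 and 157 CPM at day 7 and at 320, 325 and 358 CPM at day 14. Each day stood above the one before with no overlap. Npc1 rose by 1.91 ± 0.06 from day 1 to day 14 on the log2 scale, or 3.75-fold (edgeR adjusted p = 2.62e-11), and by 0.80 ± 0.05 and 1.11 ± 0.05 in the steps. Rmc1 and an antisense gene, both on the other strand, overlap 601 bases of its exons. Npc2, the soluble protein that hands cholesterol to Npc1 (gene 67963, chromosome 12, 84754559 to 84773112), was at 129, 125 and 136 CPM at day 1, at 88.5, 90.8 and 93.7 CPM at day 7 and at 82.9, 79.5 and 75.3 CPM at day 14. The partner genes thus moved apart in both steps, since Npc2 fell by 0.51 ± 0.05 and then by 0.20 ± 0.05 on the log2 scale (3.82e-06 and 0.00325).

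Stard4, a soluble carrier of sterols, was at 42.2, 41.3 and 42.8 CPM at day 1, at 35.1, 33.3 and 32.1 CPM at day 7 and at 71.5, 65.9 and 58.6 CPM at day 14. It was lowest at day 7 and highest at day 14 without overlap. It fell by 0.33 ± 0.07 and then rose by 0.96 ± 0.07 on the log2 scale (edgeR adjusted p = 0.00146 and 1.06e-07). Soat1, the cholesterol acyltransferase (gene 20652, chromosome 1, 156428108 to 156474328), was the least abundant gene of the list. It was at 5.93, 7.21 and 4.75 CPM at day 1, at 8.62, 5.48 and 2.59 CPM at day 7 and at 1.20, 2.15 and 0.696 CPM at day 14. Day 7 was spread across the range of day 1, and day 14 lay below both (-2.14 ± 0.53 from day 1, adjusted p = 0.00731).

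Markers of sebocytes, the lipid-producing cells of the sebaceous gland, are given beside Soat1, and their order over libraries followed it only in part. Far2 was at 4.44, 2.59 and 0.890 CPM and Cidea at 1.97, 1.3 and 0.426 CPM in day 7 libraries 1, 2 and 3, the order that Soat1 had there. At day 14 Far2 was at 0.919, 1.49 and 0.617 CPM and Cidea at 0.200, 0.961 and 0.398 CPM, both highest in library 5, as Soat1 was. At day 1 Far2 was highest in library 5, as Soat1 was, but Cidea was at 1.35, 0.788 and 0.879 CPM, highest in library 4. The order of Soat1 at day 7 was also that of Scd1 (74.2, 68.9 and 62.1 CPM) and Mgst1 (25.9, 23.3 and 22.1 CPM). Elovl3 (1.53, 0.766 and 0.58 CPM), Awat2 (1.53, 1.24 and 1.2 CPM) and the scarce Mc5r shared it there too. Fabp5 (130, 135.7 and 115.6 CPM) and Awat1 (0.0474, 0 and 0.0387 CPM) had other orders at day 7, and so did Awat2 at day 14 (0.479, 0.603 and 0.696 CPM). Far2 and Cidea were picked after their values were seen. Of 9 sebocyte markers, 7 were tested, and 1 rose (Scd1, from 53.5 ± 3.91 to 223 ± 1.92 CPM) and 3 fell from day 1 to day 14. The summed level of the markers was 186 to 222 CPM at day 1, 203 to 240 CPM at day 7 and 311 to 344 CPM at day 14. Scd1 and Fabp5 made up most of that sum. Its rise to day 14 was that of Scd1 alone, while Fabp5 fell from 138 ± 21.4 to 90.8 ± 14.9 CPM from day 1 to day 14. The defining receptor gene Mc5r was at or below 0.237 CPM in every library. The part of sebocytes in the Soat1 result was not tested.

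**Figure D2:**
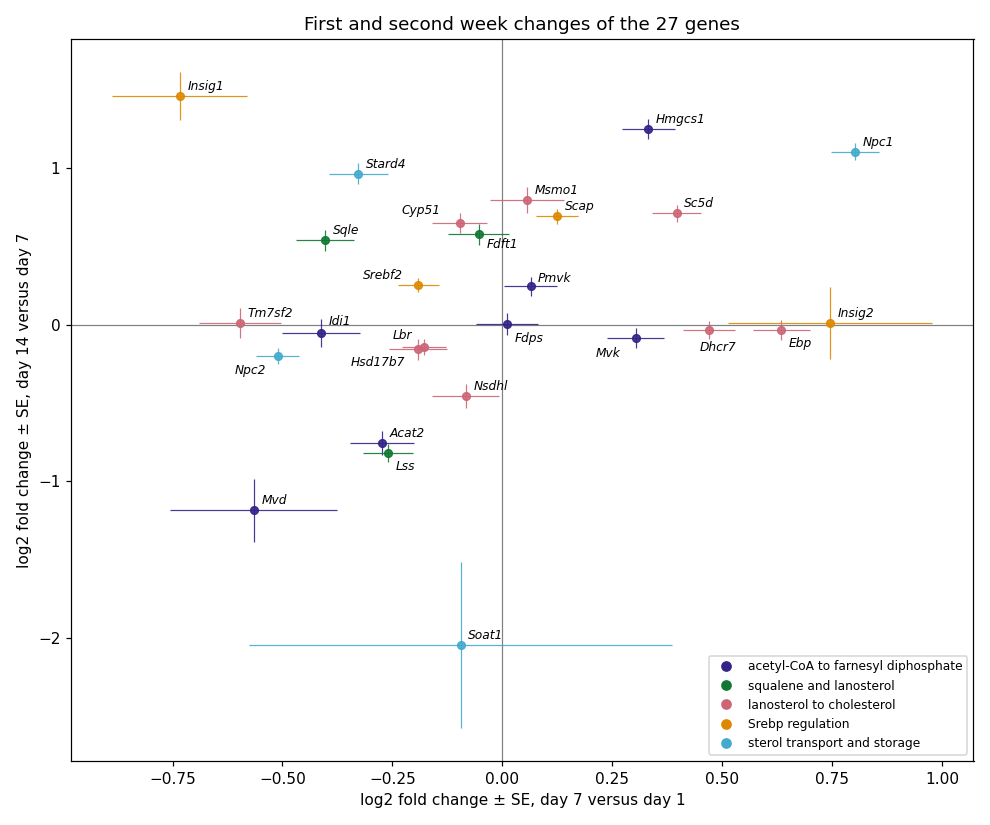
Log2 fold change with its SE from day 7 to day 14 (vertical) against that from day 1 to day 7 (horizontal) for the 27 genes, coloured by role. The steps share the day 7 libraries, so points far left and high, such as Insig1 and Stard4, are genes lowest at day 7, while Hmgcs1 and Npc1 rose in both steps and Acat2, Lss and Mvd fell in both.

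Over both steps, 4 genes rose in each (Hmgcs1, Sc5d, Scap and Npc1), or 14.8% of the list, beside 12.3% of all genes tested. The 5 genes that fell in each (Acat2, Mvd, Lss, Lbr and Npc2) made 18.5%, beside 10.2%. The 4 genes that fell and then rose (Sqle, Insig1, Srebf2 and Stard4) made 14.8%, beside 6.23%. The steps differed from each other in 19 of the 27 genes, beside 51.8% of all genes. The libraries of days 1 and 7 did not overlap for 20 of the 27 genes, beside 60.3% of all genes, those of days 7 and 14 for 20, beside 72.7%, and those of days 1 and 14 for 25, beside 77.3%. Changes of more than 2-fold were called for 3 genes upwards (Hmgcs1, Sc5d and Npc1) and 4 downwards (Acat2, Mvd, Lss and Soat1) between those days, beside 14.6% and 14.3% of all genes. From day 7 to day 14 they were called for 3 upwards (Hmgcs1, Insig1 and Npc1), beside 11.1%, and 2 downwards (Mvd and Soat1), beside 7.75%. The first step stayed within 2-fold in the whole list, with Npc1 and Insig2 the highest at 1.74-fold and 1.68-fold, while 4.76% and 8.29% of all genes were called beyond 2-fold up and down. These counts describe a list that was chosen with results of these data known.

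To compare the levels of different genes, CPM were divided by the exon length of each gene in GENCODE M21 (all its exons merged, from 1713 bases for Pmvk to 11317 for Npc1). Merged exons can be longer than the transcript a cell makes, so the order between genes depends on them. Hmgcs1 was the most abundant of the 27 on each day, at 69.3 ± 5.72 CPM per kilobase at day 1, 87.2 ± 1.7 at day 7 and 207 ± 12.2 at day 14. Srebf2 was next on each day (32.2 ± 0.79, 28.2 ± 0.77 and 33.7 ± 1.45 CPM per kilobase), and at day 14 it overlapped Scap (32.8 ± 1.82). Npc1 moved from rank 21 of 27 at day 1 (7.88 ± 0.39) to rank 4 at day 14 (29.5 ± 1.81), and Npc2 from rank 3 (23.8 ± 1.03) to rank 12 (14.6 ± 0.70). Soat1 stood last on each day, at 0.609 ± 0.125, 0.568 ± 0.308 and 0.138 ± 0.075 CPM per kilobase.

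Summed over the 27 genes, the level was 379 ± 8.32 CPM per kilobase at day 1, 389 ± 7.46 at day 7 and 575 ± 20.6 at day 14. Hmgcs1 alone held 18.3% ± 1.21 of that sum at day 1 and 36.0% ± 0.91 at day 14. Without Hmgcs1 the sums were 309.5 ± 5.09, 302 ± 6.51 and 368 ± 9.27 CPM per kilobase. These sums are described without a test.

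**Figure D3:**
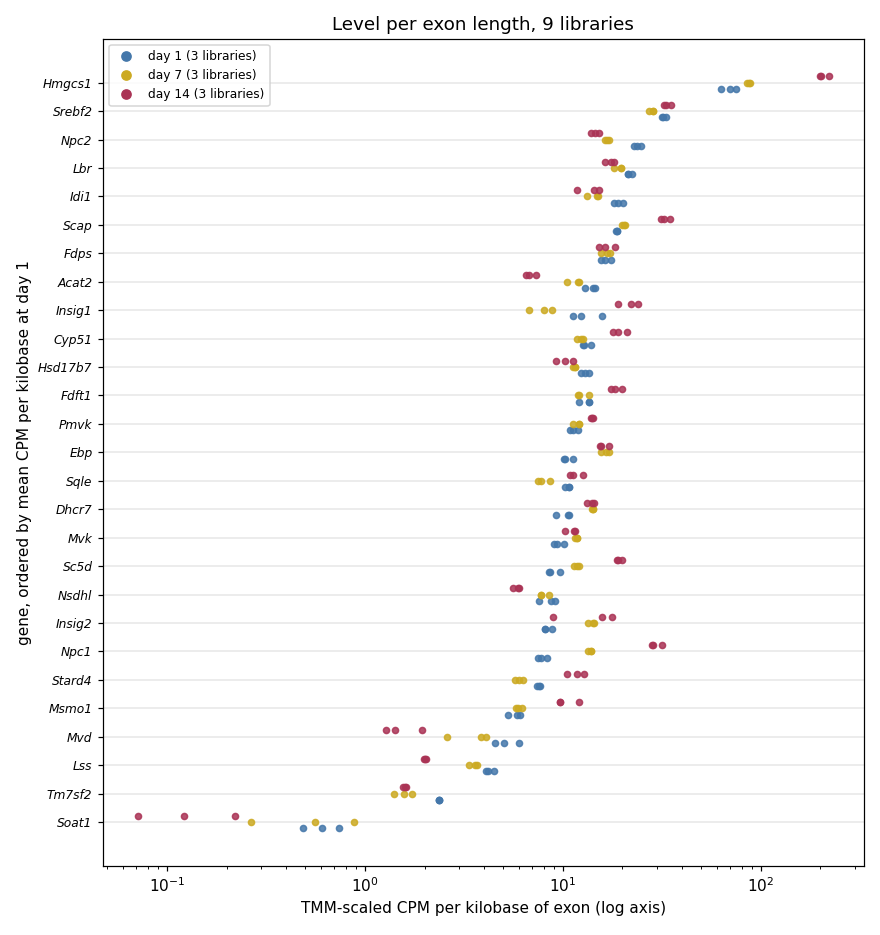
TMM-scaled CPM per kilobase of exon for the 27 genes in the 9 libraries on a log axis, with genes ordered by their mean at day 1 and colours for the days. Hmgcs1 lies rightmost on every day, Npc1 moves from 7.88 to 29.5 CPM per kilobase, and Soat1 lies furthest left.

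Genes around the 27 in the pathway were counted from lists written with earlier results of these data known. Of 16 genes of Srebp processing and sterol sensing, 10 rose and 5 fell between days 1 and 14, beside 35.5% and 38.4% of all genes, with a median log2 fold change of 0.37 against -0.046 for all genes. The rises include Erlin1, a protein of the endoplasmic reticulum membrane (59.5 ± 2.04 to 130.2 ± 8.47 CPM), and the coat protein Sec24a (35.8 ± 0.84 to 68.8 ± 0.24 CPM). The protease gene Mbtps2, which cuts Srebp in the Golgi, fell from 28.0 ± 0.71 to 16.7 ± 0.93 CPM, and Nfyb, a subunit of NF-Y, from 48.9 ± 0.4 to 35.0 ± 2.52 CPM. Of 14 genes of the isoprenoid branch, 3 rose and 6 fell (median -0.10), beside the same 35.5% and 38.4% of all genes. They include Ggps1, the geranylgeranyl diphosphate synthase (31.6 ± 1.22 to 48.0 ± 4.86 CPM), Dolpp1 of dolichol metabolism (40.6 ± 3.23 to 68.8 ± 2.41 CPM), Pdss1 of ubiquinone synthesis, which fell from 6.18 ± 1.21 to 2.69 ± 0.46 CPM, and Pggt1b, a protein prenyl transferase subunit, which fell from 33.2 ± 1.24 to 22.2 ± 0.85 CPM.

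Of 20 further sterol transport genes tested, 11 rose and 6 fell, beside 35.5% and 38.4% of all genes (median 0.29; Soat2 had 0 counts). Gramd1b, which carries cholesterol from the plasma membrane, rose from 0.302 ± 0.0935 to 7.18 ± 1.24 CPM (4.56 ± 0.27 log2, edgeR adjusted p = 1.30e-08) and the lipase gene Lipe from 3.26 ± 0.27 to 10.5 ± 0.75 CPM. The lipoprotein receptor genes Scarb1 (21.9 ± 1.53 to 3.42 ± 0.81 CPM) and Vldlr (44.2 ± 4.57 to 8.52 ± 1.15 CPM) fell, with log2 fold changes of -2.68 ± 0.15 and -2.38 ± 0.10 (edgeR adjusted p = 1.04e-08 and 5.16e-10). Of 15 tested genes listed as further Srebp targets, mostly of fatty acid and lipid metabolism, 7 rose and 5 fell (median 0.12), which is near the 35.5% and 38.4% of all genes. Me1, the malic enzyme (26.2 ± 0.95 to 104 ± 5.47 CPM), and Acsl3, an acyl-CoA synthetase (40.5 ± 2.63 to 135 ± 4.64 CPM), had the largest rises of this list. The desaturase genes Scd2 (160.3 ± 4.36 to 25.9 ± 11.1 CPM) and Fads1 (10.5 ± 1.18 to 1.74 ± 0.60 CPM) had its largest falls. Another desaturase gene, Scd1, is not in this list but among the sebocyte markers, and it rose 4.17-fold (53.5 ± 3.91 to 223 ± 1.92 CPM).

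Of 9 listed sterol oxidation and sulfation genes, 7 were tested and 2 (Sts and Faxdc2) were not analysed here. Of the 7, 5 rose and 1 fell (median 1.18), beside 35.5% and 38.4% of all genes. Cyp27a1, a sterol 27-hydroxylase, went from 1.13 ± 0.32 to 19.7 ± 4.84 CPM and Hsd3b7, which acts on hydroxylated sterols, from 11.7 ± 1.08 to 58.5 ± 2.24 CPM. Sult2b1, the sulfotransferase that forms cholesterol sulfate in the epidermis, rose from 19.4 ± 3.85 to 34.6 ± 5.09 CPM (0.84 ± 0.15 log2, edgeR adjusted p = 7.34e-04). Cyp7b1, an oxysterol hydroxylase, was at 0.549 ± 0.072 CPM at day 1 and at 0 counts in all day 14 libraries, at least 9.34-fold lower against a floor of 3 counts per library, which covers counting error only.

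**Figure D4:**
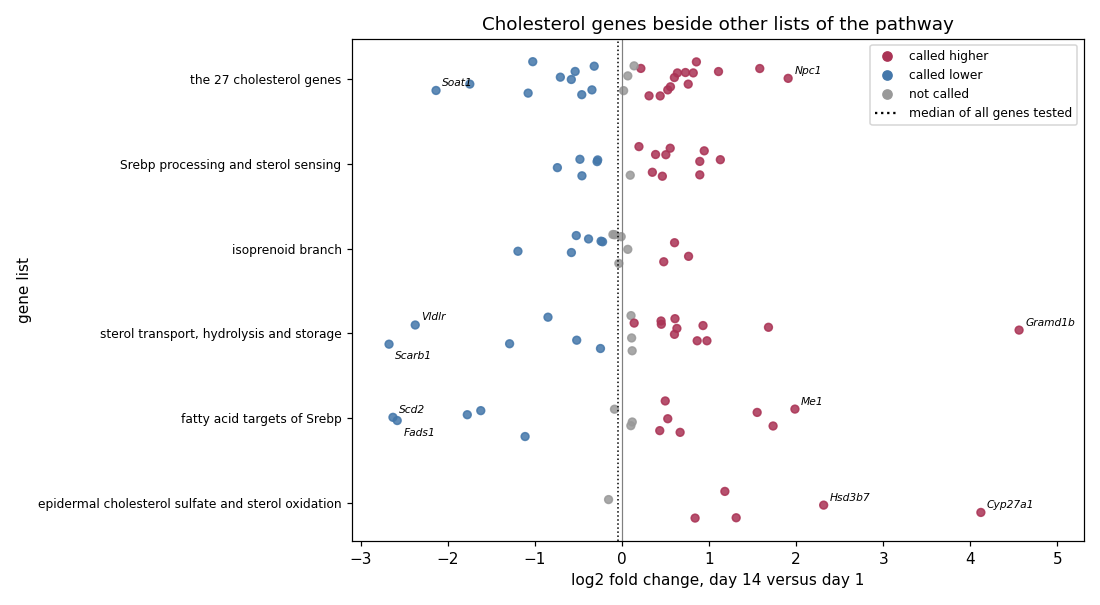
Log2 fold change from day 1 to day 14 of the 27 genes and of each other list, 1 point per tested gene, red where called higher, blue where called lower and grey where not called, with the median of all genes tested as a dotted line. Every list except the sterol oxidation genes shows calls on both sides of 0; Cyp7b1, at 0 counts at day 14, fell and is not drawn.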

How the data were processed

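Per the labels' protocols, CD45.2-negative, viable skin cells were sorted and stranded mRNA libraries were sequenced. Bcl2fastq 2.20.0, Trimmomatic, HISAT2 2.1.0, StringTie 1.3.4d and build mm10 are named in the submitters' processing notes. How reads were counted, with which strand setting and which annotation, is not given in the sources used here. The authors deposited whole-number read counts per gene, per the file headers; 18 TPM and FPKM columns were not used. Columns were assigned to days by header.

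Counts were filtered with filterByExpr, scaled with TMM and put to a test in edgeR 4.0.16, run under R 4.3.3 (robust quasi-likelihood F test, 1 model over 9 libraries, day as a factor, Benjamini-Hochberg over 14507 genes, threshold 0.05). SEs were taken from the fold change and its F value. CPM are given as mean ± SD over 3 libraries. Coordinates were matched by gene identifier to RefSeq on GRCm38.p6 (24462 of 24532 genes) and exon overlaps and lengths were taken from GENCODE M21. Alternatives were RLE size factors, library totals alone, no filter, DESeq2 1.42.0, only the days compared, each library left out, and a replicate block. The code for these tests was checked on simulated counts. All 27 genes are named by role, and from each other list up to 2 called genes with the largest change in each direction from day 1 to day 14; Sult2b1, the sebocyte markers and the overlapping neighbours were added after their values were seen. The members and lists were chosen with earlier results of these data known.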

Additional observations from a re-analysis of the deposited data

How the results depend on the processing

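Counts of the 27 genes called in each direction stayed within 1.5 times their reported value under every alternative, except that 13 rather than 7 genes fell from day 7 to day 14 with library totals alone. With each library left out in turn, 6 to 8 genes rose and 10 to 12 fell from day 1 to day 7, 12 to 13 rose and 6 to 8 fell from day 7 to day 14, and 13 to 14 rose and 10 fell from day 1 to day 14. Over 1161 single values recomputed, 1105 kept their side of the threshold, 40 lost a call, 12 gained one and 4 turned, all of these 4 with library totals alone. They were Fdps from day 7 to day 14 (-0.168) and from day 1 to day 14 (-0.256), Mvk from day 1 to day 14 (-0.057) and Srebf2 from day 1 to day 14 (-0.208). That scaling lowers all genes at the later day, which its median shows. Libraries 4, 5 and 6 carry the same numbers at days 1 and 14. Deviations of same-numbered libraries correlated at 0.0141, 0.0102 and 0.104 over genes, and those of other pairs at -0.0654 to 0.0491. With 3 libraries a day, these values cannot show whether same-numbered libraries share more than a number. With that number as a replicate block, 14 genes rose and 10 fell and no call changed. Day 7 headers use other numbers, so no paired fit was made for its steps. The SE from day 1 to day 14 was widest for Soat1 (0.53 on the log2 scale), then Insig2 (0.23) and Mvd (0.20); Soat1 also had the lowest counts, from 35 per library, and the cause of its spread was not tested.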

Other observations

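The ratio of Insig1 to Insig2, each in CPM per kilobase of exon, was 1.51, 1.28 and 1.94 in day 1 libraries 4, 5 and 6 and 0.613, 0.505 and 0.566 in day 7 libraries 1, 2 and 3. At day 14 it was 2.48, 1.07 and 1.52 in libraries 4, 5 and 6, and library 4 is the one in which Insig2 was low. The day 7 libraries lay below all others. The ratio of Npc1 to Npc2 was 0.313 to 0.351 at day 1, 0.804 to 0.855 at day 7 and 1.85 to 2.28 at day 14, without overlap. Both ratios were picked after the values were seen and were not tested.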
